A study of Mus musculus with 60 samples.

Results

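The comparison described here is that of hippocampus from mice carrying a cachectic tumour with hippocampus from mice carrying a non-cachectic tumour, 4 weeks (wk) after injection of the tumour cells. Its members were taken by name: the 5 libraries labelled cachectic at 4 wk (CAC) and the 5 labelled non-cachectic at 4 wk (NCAC), 10 of the 60 libraries of the series. CAC mice had received melanoma cells described as cachectic and NCAC mice melanoma cells described as non-cachectic; the 5 mock-injected libraries of the same time (Con) give the level without a tumour. All mice were female and labelled 2 months old. The same age is given at every time of the series, so whether it is the age at injection or at collection is not told. The strain is given as C57BL6/J in the sample labels and as NCI Ath/nude in the series' design, and this was not resolved. The labels name neither the melanoma lines nor the number of clones behind each, so the effect of cachexia and any other difference between the cell lines cannot be told apart. The libraries are labelled biological replicates, but no label ties each to its own mouse. The p-values therefore reflect only how far samples scatter, with a shared spread per gene taken from all 60 libraries.

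Cachexia is a wasting of muscle and fat that accompanies some tumours and is not reversed by feeding. Circulating inflammatory cytokines, adrenal glucocorticoids and fasting signals all reach the brain during wasting. The hippocampus, a seat of memory, is rich in glucocorticoid receptors, and its astrocytes and blood vessel cells are the first to meet signals from blood. Cytokines of the interleukin-6 family act through the transcription factor STAT3, which raises acute-phase genes, whereas glucocorticoids act through a nuclear receptor that raises genes of fuel use and stress.

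Each library held between 35248986 and 37356319 reads on genes, so depth differed little at this time. Values are in TPM, a level of transcript corrected for gene length and depth. Differences are CAC minus NCAC on the scale of log2(TPM + 0.5), given with a standard error (SE), and were tested with limma in 15608 genes with Benjamini-Hochberg adjustment. Neuronal markers were at 2654 to 2976 TPM in sum in CAC and at 2589 to 3022 TPM in NCAC, and granule cell and CA1 markers were present in every library, as the hippocampal label requires. Granule cell markers were uneven, at 400 TPM in sum in CAC replicate 2 against 193 to 301 TPM in the other 9 libraries. Other tissue was uneven as well. The 12 striatum-enriched genes summed to 2289 TPM in CAC replicate 1 and to 449 TPM in CAC replicate 4, against 133 to 279 TPM in the other 8 libraries. The 12 choroid plexus genes summed to 192 to 1690.5 TPM in CAC and to 168 to 9131.5 TPM in NCAC, with the highest sums in NCAC replicates 2 and 3. The erythroid genes were lowest in CAC replicate 4, at 359 TPM in sum against 1215 to 3206 TPM in the other 9 libraries, where CAC replicate 2 was highest.

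Of the 15608 genes, 2 rose in CAC over NCAC at an adjusted p below 0.05, which is 0.0128% of the genes tested, and 0 fell. At an unadjusted p below 0.05, 2185 genes (14%) differed, 1373 higher (8.8%) and 812 lower (5.2%) in CAC. The count of 2185 was 2507, 1855, 2423, 1243 and 2832 without CAC replicates 1 to 5. It was 2228, 1624, 1757, 2036 and 2269 without NCAC replicates 1 to 5. Shares of all genes given below are from the fit with all libraries. List counts with a library left out should be read beside the moved counts of all genes. The median difference of all genes was 0.02, and 91 genes (0.583%) differed by more than 2-fold in either direction. All 5 CAC libraries lay above all 5 NCAC libraries in 125 genes (0.801%) and below them in 82 genes (0.525%). At an adjusted p below 0.1 there were 29 genes higher (0.186%) and 20 lower (0.128%). The count of 2 depended on single libraries. It was 0 without CAC replicate 2 or 4 or without NCAC replicate 1, 2, 3 or 4, and 1 without NCAC replicate 5. That 1 gene was Atrip, and neither of the 2 passed in that fit. The count was 22, 38 and 180 without CAC replicate 1, 3 and 5.

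The gene with the larger rise was Otof, which encodes otoferlin, a calcium-sensing protein known from transmitter release by inner hair cells. It lies on chromosome 5 from 30367062 to 30461932, minus strand, in the mm10 (GRCm38) assembly, where the GENCODE M21 annotation places no overlapping gene. Otof was at 10.9, 8.11, 6.53, 11.1 and 8.32 TPM in CAC replicates 1 to 5, at 4.71, 4.95, 4.16, 4.34 and 3.72 TPM in NCAC and at 6.35, 6.43, 4.32, 7.13 and 5.54 TPM in Con. Every CAC library lay above every NCAC library, with replicates 1 and 4 highest, while the Con libraries lay between the groups and overlapped both. The means were 8.99 ± 1.96 TPM in CAC and 4.38 ± 0.478 TPM in NCAC (SD, n = 5 each), a difference of 0.94 ± 0.18 (SE, limma adjusted p = 0.0442) or 1.92-fold. Between 523 and 933 reads per library in CAC and between 286 and 417 in NCAC stood behind these values. The adjusted p ranged from 0.0105 to 0.374 when each of the 10 libraries was left out in turn and stayed below 0.05 in 3 of these 10 fits (without CAC replicate 1, 3 or 5), with differences of 0.86 to 1.04. The libraries rich in striatum genes at this time were CAC replicates 1 and 4, NCAC replicate 5 and Con replicate 2. Without the libraries rich in striatum genes the difference of Otof was 0.69 and the limma adjusted p 0.344.

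Bzrap1, listed as Tspoap1 in the annotation, encodes a scaffold protein of the presynaptic active zone. The gene spans chromosome 11 from 87760541 to 87785928 on the plus strand with no overlapping gene. It was measured at 189, 178, 158, 200.3 and 160.4 TPM in CAC, at 145, 131, 139, 134 and 133 TPM in NCAC and at 141, 162, 144, 145 and 151 TPM in Con. Again every CAC library was above every NCAC library, replicates 1 and 4 were the highest, and the Con libraries overlapped both groups. Mean levels were 177 ± 18.1 TPM and 137 ± 5.71 TPM (SD, n = 5 each), a rise of 0.37 ± 0.07 (SE, limma adjusted p = 0.0442) or 1.29-fold. With each library left out in turn the difference was 0.32 to 0.41 and the adjusted p 0.0100 to 0.374, below 0.05 in 3 of 10 fits (without CAC replicate 1, 3 or 5). Without the libraries rich in striatum genes it was 0.27 with an adjusted p of 0.344, and the adjusted p of Bzrap1 was 0.0589 with voom on recovered reads and 0.0725 with tissue covariates.

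**Figure D1:**
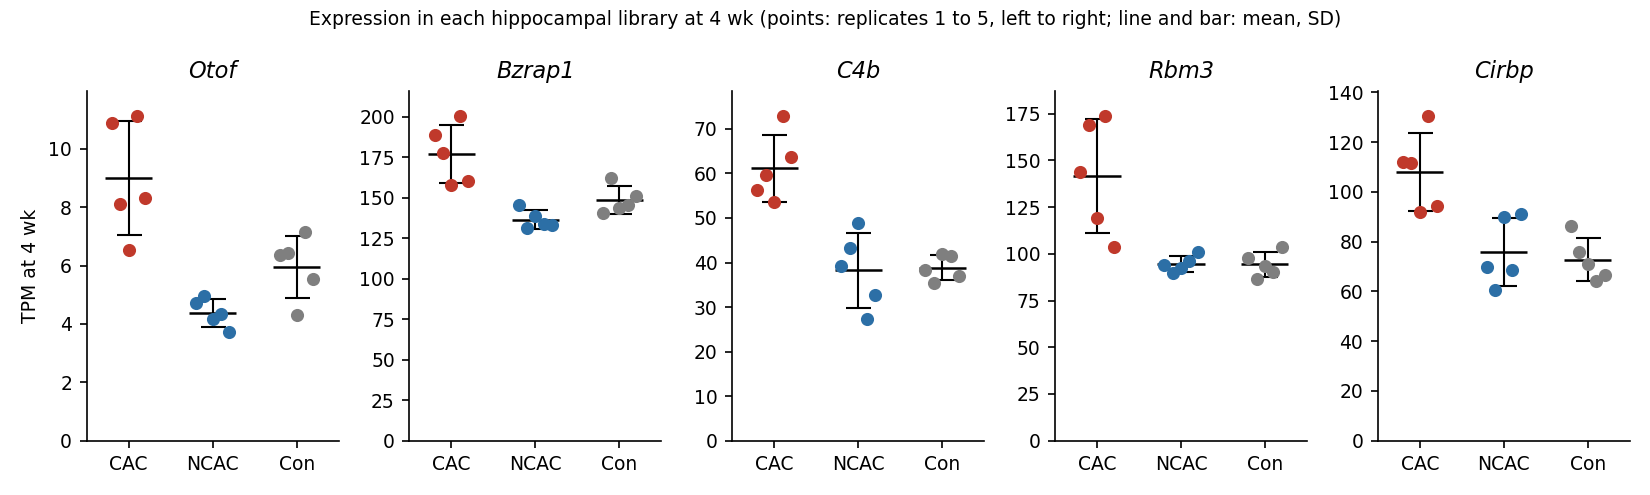
TPM (vertical axes, from 0) of 5 genes in the CAC (red), NCAC (blue) and Con (grey) libraries of 4 wk, replicates 1 to 5 from left to right, with the mean as a line and the SD as a bar. All CAC points lie above all NCAC points in each panel, as in 0.801% of all genes, and only Otof and Bzrap1 passed the adjusted test.

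A further 8 genes with the smallest p above NCAC are given as values, at adjusted p from 0.0698 to 0.0711. They were Asl, the urea cycle enzyme argininosuccinate lyase (0.41 ± 0.09); Trrap, a scaffold of histone acetyltransferase complexes (0.30 ± 0.07); Mbtps1, the site-1 protease that activates SREBP and ATF6 (0.21 ± 0.05); and Usp48, a deubiquitinase (0.24 ± 0.05). The others were Nphs1, which encodes nephrin (0.72 ± 0.17), Usp51, a histone deubiquitinase (0.74 ± 0.17), Fam214a (0.41 ± 0.10) and Atrip, the partner of the checkpoint kinase ATR (0.49 ± 0.12). Asl stood at 10.2, 10.9, 10.2, 17.0 and 9.66 TPM in CAC and at 8.93, 8.15, 8.16, 8.86 and 8.05 TPM in NCAC. Its groups did not overlap, and CAC replicate 4 stood far above the other 4. Usp48 did not overlap between the groups either, at 70.0 to 85.2 TPM in CAC and 61.0 to 69.7 TPM in NCAC. All CAC libraries lay above all NCAC libraries in 0.801% of all genes. Genes picked for a small p tend to separate in this way.

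The 10 genes with the smallest p on the lower side all had an adjusted p of 0.0698. Over all genes, all CAC libraries lay below all NCAC libraries in 0.525%. Genes picked for a small p tend to separate in this way, which includes these 10. In 6 of them all CAC libraries lay below all NCAC libraries: Mpv17, an inner mitochondrial membrane protein (-0.22 ± 0.05), Cycs, cytochrome c (-0.25 ± 0.06), Mettl1, a transfer RNA methyltransferase (-0.25 ± 0.06), the histone variant gene H2afv (-0.33 ± 0.08), the matrix protein gene Tinagl1 (-0.78 ± 0.18) and Klk8 (-0.50 ± 0.11). Tinagl1 was at 2.43, 2.70, 3.42, 2.13 and 3.56 TPM in CAC and at 5.77, 4.91, 6.46, 4.14 and 4.86 TPM in NCAC, where the lowest NCAC library exceeded the highest CAC library. Klk8, a neuronal protease also called neuropsin, was at 21.3, 15.6, 21.8, 13.9 and 22.3 TPM in CAC, at 25.5, 26.1, 28.4, 25.0 and 27.8 TPM in NCAC and at 14.7, 16.5, 24.9, 17.6 and 17.6 TPM in Con. For Klk8 it was the NCAC group that stood apart from Con (0.55 ± 0.11, adjusted p = 0.227), while CAC overlapped Con (0.05 ± 0.11). The remaining 4 were Tubb4b, a beta tubulin (-0.30 ± 0.06), Lims2, a focal adhesion adaptor (-0.59 ± 0.13), Cav1, the caveolar coat protein of endothelium (-0.56 ± 0.13), and Mmp28, a metalloproteinase (-0.68 ± 0.16). Of these 18 genes, 10 overlap another annotated gene, among them Lims2 with Gpr17 and Atrip with Trex1, and the strand setting of the authors' counting is not given in the sources used here, so reads of such pairs cannot be told apart.

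The next set is 38 genes named in earlier results of the series for their difference at 6 or 8 wk. They were chosen on libraries of those later times, none of which belongs to the comparison at 4 wk. All 38 were tested here, and 0 passed the adjusted test. A difference above 0 was found in 21, a share near the 55.7% of all genes. The list mixes genes raised late with genes lowered late. This share therefore cannot show whether the late directions were present at 4 wk. At an unadjusted p below 0.05, 11 were higher and 11 lower in CAC, where 8.8% and 5.2% of all genes were. Without CAC replicate 4 these counts were 3 and 4, without CAC replicate 2 they were 6 and 8, and without CAC replicate 5 they were 17 and 13.

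Astrocyte and lipid genes come first. Etnppl, the lyase with which astrocytes clear phosphoethanolamine, was at 5.42, 9.20, 1.71, 29.3 and 1.26 TPM in CAC and at 0.981, 4.61, 0.782, 1.79 and 0.749 TPM in NCAC. CAC replicates 4, 2 and 1 were above all NCAC libraries, and replicates 3 and 5 lay within their range. The difference of 1.58 ± 0.53 had an adjusted p of 0.192. Phyhd1, a dioxygenase related to the peroxisomal enzyme of phytanic acid breakdown, was at 13.4, 28.2, 12.2, 58.3 and 12.1 TPM in CAC and at 9.84, 12.6, 11.4, 10.6 and 10.4 TPM in NCAC (0.85 ± 0.28, adjusted p = 0.176). Replicates 2 and 4 stood far above the NCAC range, and replicates 3 and 5 lay inside it. Plin4, a lipid droplet coat protein, was at 6.86, 39.7, 8.54, 65.4 and 2.15 TPM in CAC, at 8.81, 16.6, 2.74, 17.1 and 1.91 TPM in NCAC and at 1.70, 1.96, 10.1, 20.6 and 20.3 TPM in Con (0.88 ± 0.70, adjusted p = 0.596). CAC replicates 2 and 4 were again the highest, but Plin4 also varied widely within NCAC and within Con, and it overlaps Hdgfl2 in the annotation. Tmem252, a membrane protein gene, had the same pair of libraries at the top, at 0.599, 7.92, 0.882, 6.88 and 0.976 TPM in CAC and 1.65, 1.10, 1.16, 0.997 and 0.251 TPM in NCAC (0.89 ± 0.36, adjusted p = 0.274).

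Scgb3a1, a secreted secretoglobin detected on few reads, was at 0.463, 1.51, 0.495, 9.73 and 0.167 TPM in CAC and at 0.681, 0, 0.15, 0 and 0 TPM in NCAC. These values rest on 1 to 57 reads in CAC and 0 to 4 reads in NCAC, and only CAC replicates 2 and 4 exceeded every NCAC library. Its difference was 1.42 ± 0.53 (adjusted p = 0.232). The 250 bases before the start sites of Scgb3a1 and Phyhd1 are shown because both hold the palindrome to which STAT factors are known to bind, TTCNNNGAA. The sequences are from RefSeq (GRCm38.p6), both on the plus strand, and the capitals mark the match, which ends 185 bases before the Scgb3a1 start and 66 bases before that of Phyhd1.
Scgb3a1, chr11:49663345-49663594: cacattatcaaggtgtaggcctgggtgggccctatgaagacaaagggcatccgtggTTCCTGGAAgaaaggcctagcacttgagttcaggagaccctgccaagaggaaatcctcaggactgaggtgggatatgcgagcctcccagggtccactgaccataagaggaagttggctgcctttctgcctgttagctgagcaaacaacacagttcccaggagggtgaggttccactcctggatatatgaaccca
Phyhd1, chr2:30265953-30266202: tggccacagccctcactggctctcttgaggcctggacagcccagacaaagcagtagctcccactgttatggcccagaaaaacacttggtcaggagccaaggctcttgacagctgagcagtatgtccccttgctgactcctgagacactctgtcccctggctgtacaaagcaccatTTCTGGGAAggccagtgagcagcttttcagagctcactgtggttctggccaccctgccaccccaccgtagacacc
The palindrome is its own reverse complement, so 1 search covers both strands. It occurred in 7.02% of all 32851 promoter entries of this length and in 7.27% of the 11468 tested genes with an entry. Of the 38 genes above, 32 had an entry and 5 held the palindrome: Scgb3a1, Phyhd1, Sgk1, Bdnf and Tgtp2. For Phyhd1 it was present in 1 of 3 entries. A match describes the letters of the window and does not show binding.

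Genes that glucocorticoids are known to raise were measured as a list of 24. All 24 had a difference above 0, where 55.7% of all genes did, with a median of 0.24 against 0.02 for all genes. At an unadjusted p below 0.05, 2 of the 24 were higher, a share near the 8.8% of all genes, 0 were lower (5.2% of all genes), and 0 passed the adjusted test. The count of 2 was 0 without CAC replicate 2 or 4, 4 without CAC replicate 1 or NCAC replicate 2 or 4, and 10 without CAC replicate 5, and the median was 0.09 without CAC replicate 4 and 0.39 without CAC replicate 5. Sgk1, a kinase of salt and stress responses, was at 46.5, 92.9, 62.0, 114 and 33.2 TPM in CAC and at 44.7, 68.9, 48.2, 81.6 and 41.6 TPM in NCAC, with a difference of 0.20 ± 0.22. CAC replicates 2 and 4 were the highest, replicate 5 the lowest, and the difference was -0.010 without replicate 4. Con was as wide, at 37.1, 51.7, 46.4, 95.8 and 104 TPM. Fkbp5, a chaperone that dampens the glucocorticoid receptor, was at 33.3, 65.2, 45.4, 73.7 and 28.1 TPM in CAC and at 43.2, 39.6, 24.6, 40.7 and 30.9 TPM in NCAC (0.39 ± 0.19, adjusted p = 0.363). Cdkn1a, a cell-cycle inhibitor, was at 8.13, 20.7, 5.15, 40.3 and 6.49 TPM in CAC and 5.77, 10.1, 8.91, 9.26 and 6.11 TPM in NCAC (0.57 ± 0.33, adjusted p = 0.439). Pdk4, a switch away from glucose oxidation, was at 16.4, 31.0, 15.2, 44.5 and 15.6 TPM against 16.2, 23.8, 16.8, 25.3 and 14.3 TPM (0.23 ± 0.21), and its difference was -0.012 without CAC replicate 4. For each of these 4 genes CAC replicates 2 and 4 exceeded all NCAC libraries, whereas replicate 5 did so for none. Lcn2, which encodes the iron-carrier-binding protein lipocalin 2, was at 0.387, 4.98, 0.489, 2.57 and 0.153 TPM in CAC and 0.272, 0.751, 0.102, 0.324 and 0.275 TPM in NCAC (0.94 ± 0.34, adjusted p = 0.223).

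**Figure D2:**
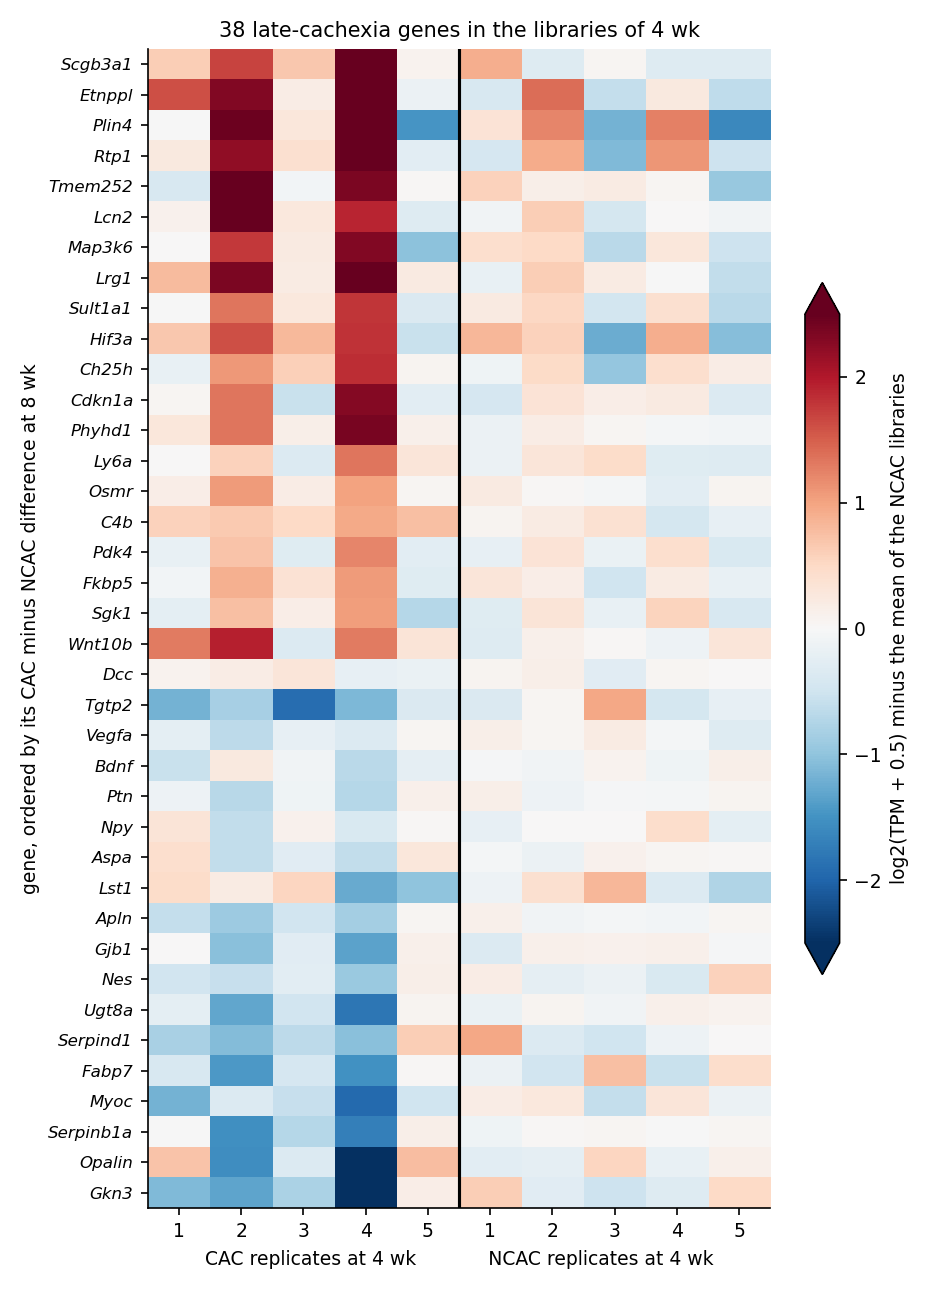
The 38 genes (vertical axis, ordered by their CAC minus NCAC difference at 8 wk) in the CAC (left) and NCAC (right) libraries of 4 wk. Colour is log2(TPM + 0.5) minus the NCAC mean, red above and blue below, with values beyond 2.5 drawn at the ends of the scale. CAC replicates 2 and 4 carry most of the strong colours and replicate 5 few of them.

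The interleukin-6, STAT3 and acute inflammation list had 16 genes tested of 20, with a median of 0.12. At an unadjusted p below 0.05, 6 were higher and 0 lower, against 8.8% and 5.2% of all genes, and 0 passed the adjusted test. The count was 4 to 8 with each library left out. Lrg1, an acute-phase glycoprotein of endothelium, was at 1.23, 4.61, 0.658, 5.29 and 0.667 TPM in CAC and at 0.377, 1.04, 0.663, 0.489 and 0.152 TPM in NCAC (1.22 ± 0.35, adjusted p = 0.145), on 9 to 70 and 2 to 15 reads. CAC replicates 1, 2 and 4 exceeded the NCAC libraries. Osmr, the oncostatin M receptor subunit, was at 2.12, 4.37, 2.14, 4.16 and 1.93 TPM in CAC and 2.21, 1.87, 1.75, 1.44 and 1.94 TPM in NCAC (0.49 ± 0.17, adjusted p = 0.192). Here only replicates 2 and 4 stood above the NCAC range. Bcl3, a nuclear co-regulator of NF-kappaB, differed by 0.66 ± 0.22 (adjusted p = 0.176) and the interleukin-4 receptor gene Il4ra by 0.49 ± 0.17 (adjusted p = 0.205). Il4ra was lower in NCAC than in Con (-0.43 ± 0.17, adjusted p = 0.432) and close to Con in CAC (0.07 ± 0.17).

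Complement component C4 was the only member of the late set whose CAC libraries all lay above the NCAC libraries, as they did in 0.801% of all genes. C4b was at 56.3, 59.6, 53.5, 72.8 and 63.7 TPM in CAC, at 39.3, 43.2, 48.8, 27.4 and 32.6 TPM in NCAC and at 38.4, 35.5, 42.0, 41.4 and 37.0 TPM in Con. No CAC library overlapped NCAC or Con, with a difference of 0.69 ± 0.23 (adjusted p = 0.176, SE) from means of 61.2 ± 7.53 and 38.3 ± 8.44 TPM (SD, n = 5 each). The share of all genes in which CAC lay apart from Con was not counted. Its near-identical neighbour C4a was at 4.81, 3.69, 4.80, 5.84 and 4.31 TPM against 2.95, 2.93, 4.17, 2.68 and 1.91 TPM (0.62 ± 0.17, adjusted p = 0.12), and reads may be split between both genes. Of the 11 complement genes tested these 2 were higher and 0 lower at an unadjusted p below 0.05, against 8.8% and 5.2% of all genes, and the median of the list was 0.02.

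Both cold-inducible RNA-binding genes also had every CAC library above every NCAC library, as 0.801% of all genes did. Their proteins stabilise messenger RNA when body temperature drops. Rbm3 was at 144, 169, 119, 174 and 103 TPM in CAC, at 93.8, 89.6, 92.4, 95.9 and 101 TPM in NCAC and at 97.6, 86.6, 93.7, 90.2 and 103 TPM in Con (0.55 ± 0.15, adjusted p = 0.117). CAC replicates 2 and 4 were the highest, and replicate 5 barely exceeded NCAC. Cirbp was at 112, 112, 92.0, 130.3 and 94.3 TPM in CAC, at 69.6, 60.5, 89.7, 68.6 and 91.1 TPM in NCAC and at 86.4, 75.8, 71.0, 64.4 and 66.5 TPM in Con (0.51 ± 0.17, adjusted p = 0.181). Among 19 genes of the circadian clock, whose feedback loops time daily rhythms, 6 were higher and 0 lower at an unadjusted p below 0.05, against 8.8% and 5.2% of all genes, with a median of 0.13. The smallest p-values belonged to the repressor Cry2 (0.22 ± 0.06), the output factor Tef (0.18 ± 0.06), the activator Npas2 (0.33 ± 0.14) and the repressor Per3 (0.25 ± 0.11). Npas2 was lower in NCAC than in Con (-0.43 ± 0.14), and the count of 6 was 2 without CAC replicate 4 or NCAC replicate 5 and 3 without CAC replicate 2. The hour of tissue collection was not analysed here.

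Vascular genes lay mostly on the lower side. For the counts of this paragraph, 5.2% of all genes were lower and 8.8% higher at an unadjusted p below 0.05. Gkn3, a secreted protein of brain arterial endothelium, was at 3.23, 2.70, 4.15, 0 and 8.54 TPM in CAC and at 11.8, 6.13, 5.13, 5.96 and 10.8 TPM in NCAC (-1.41 ± 0.39, adjusted p = 0.12). CAC replicate 4 held 0 reads of it, and replicates 1 to 4 were below all NCAC libraries while replicate 5 was not. Apln, the peptide apelin of sprouting vessel tips, was at 10.6, 8.40, 11.4, 8.82 and 16.8 TPM in CAC and 17.7, 15.3, 15.8, 15.5 and 16.9 TPM in NCAC (-0.56 ± 0.16, adjusted p = 0.152). Again 4 of 5 CAC libraries lay below the NCAC range and replicate 5 within it. Of 15 angiogenic signalling genes, 5 were lower and 1 higher at an unadjusted p below 0.05 (median -0.21), led by the growth factor Vegfc (-0.48 ± 0.14), Apln and the receptor Kdr (-0.52 ± 0.18), with the vessel-relaxing peptide gene Adm on the other side (0.52 ± 0.21). Of 11 arterial and venous genes tested, 5 were lower and 0 higher (median -0.07), with Sema3g (-0.35 ± 0.12) and the adhesion receptor Vcam1 (-0.49 ± 0.19) beside Gkn3 and Vegfc. The 14 brain endothelial and barrier genes had a median of -0.04, 1 higher and 4 lower, among them Ly6c1 (0.32 ± 0.13) and the junction genes Cdh5 (-0.33 ± 0.14) and Ocln (-0.30 ± 0.13). Left-out libraries moved these counts: the 5 angiogenic genes were 3 without CAC replicate 2 or 4 or NCAC replicate 1 or 3, and the 4 barrier genes were 1 without CAC replicate 4 or NCAC replicate 1 and 2 without NCAC replicate 5.

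Genes of oligodendrocytes, the cells that make myelin, showed a split among the CAC libraries. All 14 myelin genes had a difference below 0, as 44.3% of all genes did, with a median of -0.41, and 6 were lower at an unadjusted p below 0.05, against 5.2% of all genes. That count was 0 without CAC replicate 4, 2 without CAC replicate 2 or NCAC replicate 4, and 10 without CAC replicate 5. Serpinb1a, a protease inhibitor, was at 13.9, 4.5, 8.33, 3.94 and 15.6 TPM in CAC and at 12.8, 14.2, 14.5, 13.9 and 14.3 TPM in NCAC (-0.76 ± 0.25, adjusted p = 0.176), with a narrow NCAC group. CAC replicates 4, 2 and 3 lay below the NCAC range, replicate 1 lay within it and replicate 5 above it. Ugt8a, which makes the myelin lipid galactosylceramide, was at 35.5, 16.9, 30.2, 11.7 and 44.4 TPM against 37.5, 44.1, 39.6, 46.3 and 44.9 TPM (-0.76 ± 0.27, adjusted p = 0.205). Opalin, a marker of mature oligodendrocytes, was at 47.8, 9.46, 22.6, 4.67 and 49.2 TPM in CAC and 24.0, 24.6, 42.1, 25.1 and 31.6 TPM in NCAC (-0.58 ± 0.35, adjusted p = 0.458), so that the CAC libraries lay on both sides of the NCAC range. In whole tissue, fewer cells of a type and less RNA per cell cannot be told apart. Of the 10 precursor and newly formed oligodendrocyte genes, 3 were lower and 0 higher by that rule, against 5.2% and 8.8% of all genes (1 lower without CAC replicate 2), with Bcas1 at -0.56 ± 0.19.

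Cholesterol synthesis supplies the sterol that myelin is rich in. Of 18 genes tested, 10 were lower and 2 higher at an unadjusted p below 0.05, against 5.2% and 8.8% of all genes, with a median of -0.22 and 0 past the adjusted test. The lower count was 6 to 13 with each library left out and lowest without CAC replicate 2 or 4 or NCAC replicate 2. Nsdhl, a sterol dehydrogenase, was at 24.5, 18.8, 23.6, 17.0 and 26.0 TPM in CAC and at 30.0, 27.9, 27.9, 28.6 and 25.8 TPM in NCAC (-0.36 ± 0.09, adjusted p = 0.103). Only CAC replicate 5 reached the NCAC range. Hmgcs1, the synthase ahead of the rate-limiting step, was at 224, 197, 227, 149 and 257 TPM against 267, 276, 246, 243 and 265 TPM (-0.32 ± 0.10), and Idi1 and Msmo1 of the later pathway differed by -0.37 ± 0.12 and -0.39 ± 0.13.

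Lists of resident immune cells and of interferon responses had medians below 0, with values that turned on different libraries. For the counts of this paragraph, 44.3% of all genes had a difference below 0, and 5.2% were lower and 8.8% higher at an unadjusted p below 0.05. The 12 homeostatic microglia genes all had a difference below 0 (median -0.25), and 5 were lower at an unadjusted p below 0.05, a count that was 0 without CAC replicate 4, 2 without NCAC replicate 1 and 3 without CAC replicate 2 or NCAC replicate 5. The purinergic receptor gene P2ry12 was at 83.1, 53.3, 59.0, 20.3 and 67.7 TPM in CAC and at 78.9, 63.2, 65.9, 66.0 and 71.1 TPM in NCAC (-0.42 ± 0.18, adjusted p = 0.299). Tmem119 was at 27.2, 27.7, 30.1, 13.9 and 30.8 TPM in CAC and 34.4, 32.5, 29.8, 36.1 and 30.7 TPM in NCAC (-0.38 ± 0.15, adjusted p = 0.274). In both genes CAC replicate 4 was far below the other 9 libraries. Of 18 interferon-stimulated genes, 17 had a difference below 0 (median -0.45) and 8 were lower at an unadjusted p below 0.05, a count that was 1 without NCAC replicate 3 and 3 without CAC replicate 3. The GTPase gene Igtp was at 2.96, 3.58, 2.98, 2.32 and 3.71 TPM in CAC, at 4.58, 5.05, 7.80, 4.58 and 4.78 TPM in NCAC and at 3.03, 4.33, 3.18, 4.81 and 2.32 TPM in Con (-0.68 ± 0.24, adjusted p = 0.198). No CAC library reached the NCAC range, which held for 2 of the 18 genes and for 0.525% of all genes. NCAC replicate 3 was the highest of all, and Con overlapped both groups. Median differences of the list from Con were 0.32 for NCAC and -0.18 for CAC. The MHC class I list had 3 of 10 genes lower and 0 higher (0 lower without CAC replicate 3 and 1 without NCAC replicate 3). Its light chain gene B2m was at 136, 132, 112, 129.9 and 148 TPM in CAC, 189, 181, 216, 167 and 148 TPM in NCAC and 124, 154, 145, 157 and 117 TPM in Con (-0.45 ± 0.19, adjusted p = 0.299).

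**Figure D3:**
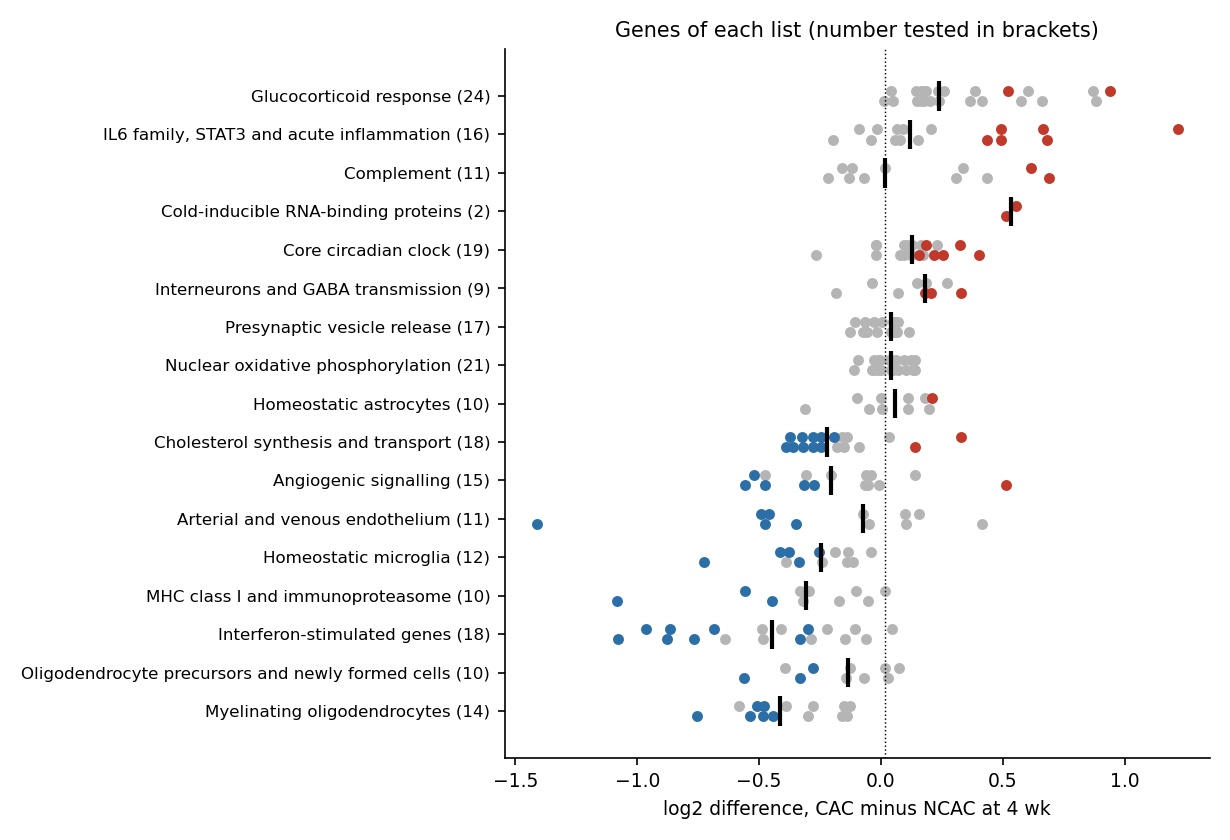
Log2 difference CAC minus NCAC at 4 wk (horizontal axis) of every tested gene of 17 lists (number tested in brackets). Red and blue points had an unadjusted p below 0.05 above and below 0, grey points did not, bars are list medians and the dotted line is the median of all genes. All glucocorticoid response points lie above 0 and all myelin and microglia points below 0.

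The genes called at later times were then followed in the libraries of 4 wk. CAC against NCAC gave 285 genes (1.83%) at 8 wk, from 7 and 5 libraries, 276 genes (1.77%) at 6 wk, from 5 and 4 libraries, and 0 genes at 2 wk by limma (1083, or 6.94%, at an unadjusted p below 0.05). No library is shared between times, although all times share 1 estimate of the spread. Of the 197 genes higher at 8 wk (1.26%), 184 (93.4%) had a difference above 0 at 4 wk, against 55.7% of all genes, and 74 (37.6%) had an unadjusted p below 0.05 in that direction, against 8.8% of all genes. These 74 were 5.39% of all genes higher at 4 wk by that rule. Of the 88 genes lower at 8 wk (0.564%), 84 (95.5%) were below 0 at 4 wk, against 44.3% of all genes, and 37 (42.0%) were lower at an unadjusted p below 0.05, against 5.2% of all genes. These 37 were 4.56% of all genes lower by that rule. Their median differences were 0.15 and -0.27 at 4 wk, against 0.38 and -0.56 at 8 wk, and -0.02 and 0.11 at 2 wk. None of the 285 passed the adjusted test at 4 wk. The 6 wk sets were alike in this: 207 genes were higher at 6 wk (1.33%) and 69 lower (0.442%), of which 199 (96.1%) and 59 (85.5%) had the same direction at 4 wk, against 55.7% and 44.3% of all genes.

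These medians hid a wide range among the 5 CAC libraries. For the 197 genes higher at 8 wk, the median distance from the NCAC mean of 4 wk was -0.05, 0.33, 0.11, 0.43 and -0.00 in CAC replicates 1 to 5, and it ran from -0.14 to 0.08 in the NCAC libraries and from -0.09 to 0.11 in Con. For the 88 lower genes it was -0.16, -0.52, -0.19, -0.62 and 0.13 in CAC and between -0.09 and 0.07 in NCAC. Replicates 2, 3 and 4 lay outside the NCAC and Con ranges on both sets, replicate 3 just outside the Con range on the first. Replicates 2 and 4 were the furthest out on both sets. The CAC libraries of 8 wk spanned 0.07 to 0.50 and -0.85 to -0.28, measured from the NCAC mean of 8 wk instead. Both sets were called in those same libraries, so this span is no independent yardstick. Replicates 2 and 4 lay within it on both sets, and replicate 3 on the first set alone. The 6 wk sets differed in this, measured from the NCAC mean of 6 wk for the CAC libraries of 6 wk. Those libraries spanned 0.33 to 0.35 on the higher set, with replicates 2 and 4 of 4 wk at 0.26 and 0.42. On the lower set they spanned -0.62 to -0.41, with replicates 1, 2 and 4 of 4 wk at -0.24, -0.24 and -0.32. Replicate 4 was the highest CAC library in 140 and replicate 2 in 50 of the 197 genes, whereas over all genes they were the highest in 36.1% and 21.1%. Above the whole NCAC range were 83.8% of the 197 genes in replicate 4, 80.7% in replicate 2, 28.9% in replicate 3, 19.3% in replicate 1 and 13.2% in replicate 5. The corresponding shares of all genes were 39.4%, 29.3%, 17.7%, 13.7% and 21.2%. Without CAC replicate 4 the counts of 74 and 37 were 26 and 15. They were 45 and 23 without CAC replicate 2, and 95 and 62 without CAC replicate 5. In these fits 1243, 1855 and 2832 of all genes had an unadjusted p below 0.05 in either direction, against 2185 with all libraries. Replicate 4 also had the lowest erythroid and the highest choroid plexus sum of the CAC group and the second-highest striatum sum, while replicate 2 had the highest erythroid sum and the lowest striatum sum. Replicate 2 also had the highest granule cell marker sum of the CAC group. The part of other tissue or of granule cell content in these values was not tested.

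**Figure D4:**
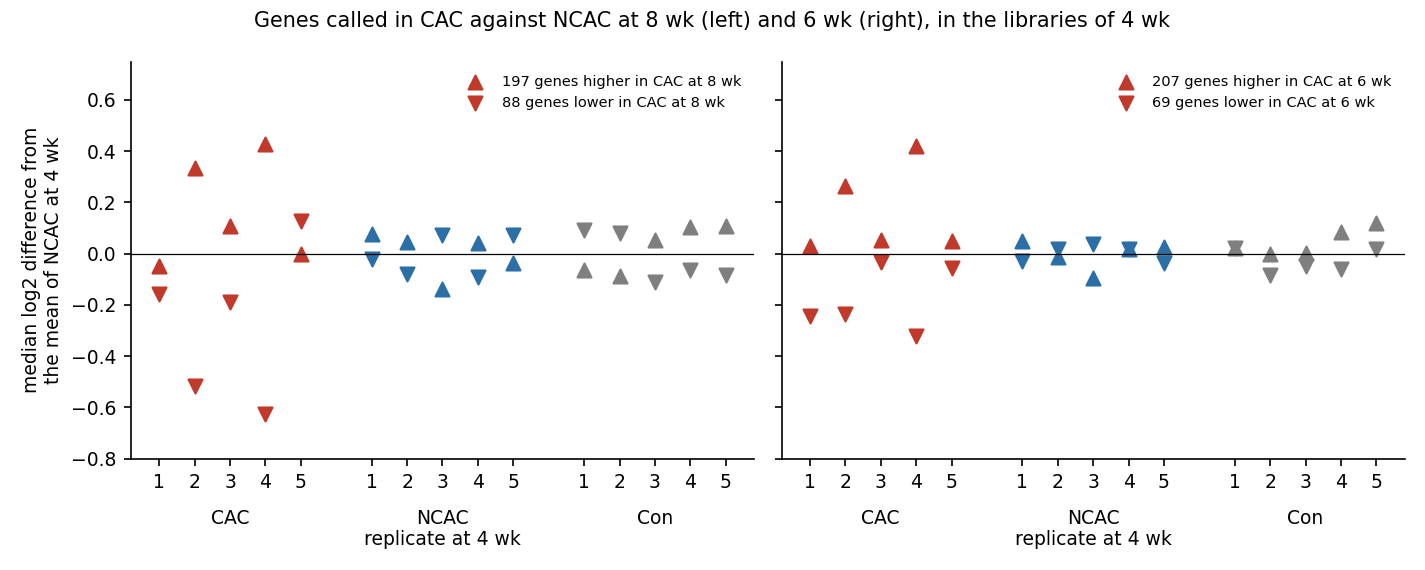
Median log2 distance from the NCAC mean of 4 wk (vertical axis) of the genes called at 8 wk (left) and 6 wk (right), in each CAC (red), NCAC (blue) and Con (grey) library of 4 wk. Triangles pointing up are the genes higher in CAC at the later time and triangles pointing down those lower. CAC replicates 2 and 4 have the widest gap between both sets.

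Whether the CAC to NCAC difference itself changed with time was tested as a contrast of contrasts. Limma found 0 genes between 4 and 2 wk, 0 between 4 and 6 wk and 0 between 4 and 8 wk, with 1032 (6.61%), 660 (4.23%) and 818 (5.24%) at an unadjusted p below 0.05. Otof had differences of 0.27 ± 0.19 at 2 wk, 0.94 ± 0.18 at 4 wk, 0.39 ± 0.19 at 6 wk and 0.02 ± 0.17 at 8 wk, and its change between 4 and 8 wk of 0.92 ± 0.25 had an adjusted p of 0.938. Its CAC mean ran from 5.88 to 8.99 TPM over the 4 times. Otof and Bzrap1 were picked at 4 wk, which favours a larger difference at that time. The difference of Bzrap1 was 0.11 ± 0.08, 0.37 ± 0.07, 0.24 ± 0.08 and 0.20 ± 0.07 at the same times. Dcc, the netrin receptor of axon guidance, had the smallest p for 4 against 6 wk, with differences of 0.04 at 4 wk and -0.78 at 6 wk (adjusted p = 0.209). Between 4 and 8 wk the smallest p belonged to Spink8, a CA1 pyramidal cell marker, at -0.28 and 0.59, and between 4 and 2 wk to Efhd1, at -0.42 and 0.48 (adjusted p = 0.938 and 0.646). Etnppl had differences of 1.13 ± 0.57, 1.58 ± 0.53, 3.21 ± 0.57 and 2.78 ± 0.49, and its change from 4 to 6 wk had an adjusted p of 0.958. Serpinb1a went from 0.38 ± 0.26 at 2 wk to -0.76 ± 0.25 at 4 wk and -1.42 ± 0.23 at 8 wk, with an adjusted p of 0.646 for the first of these steps.

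**Figure D5:**
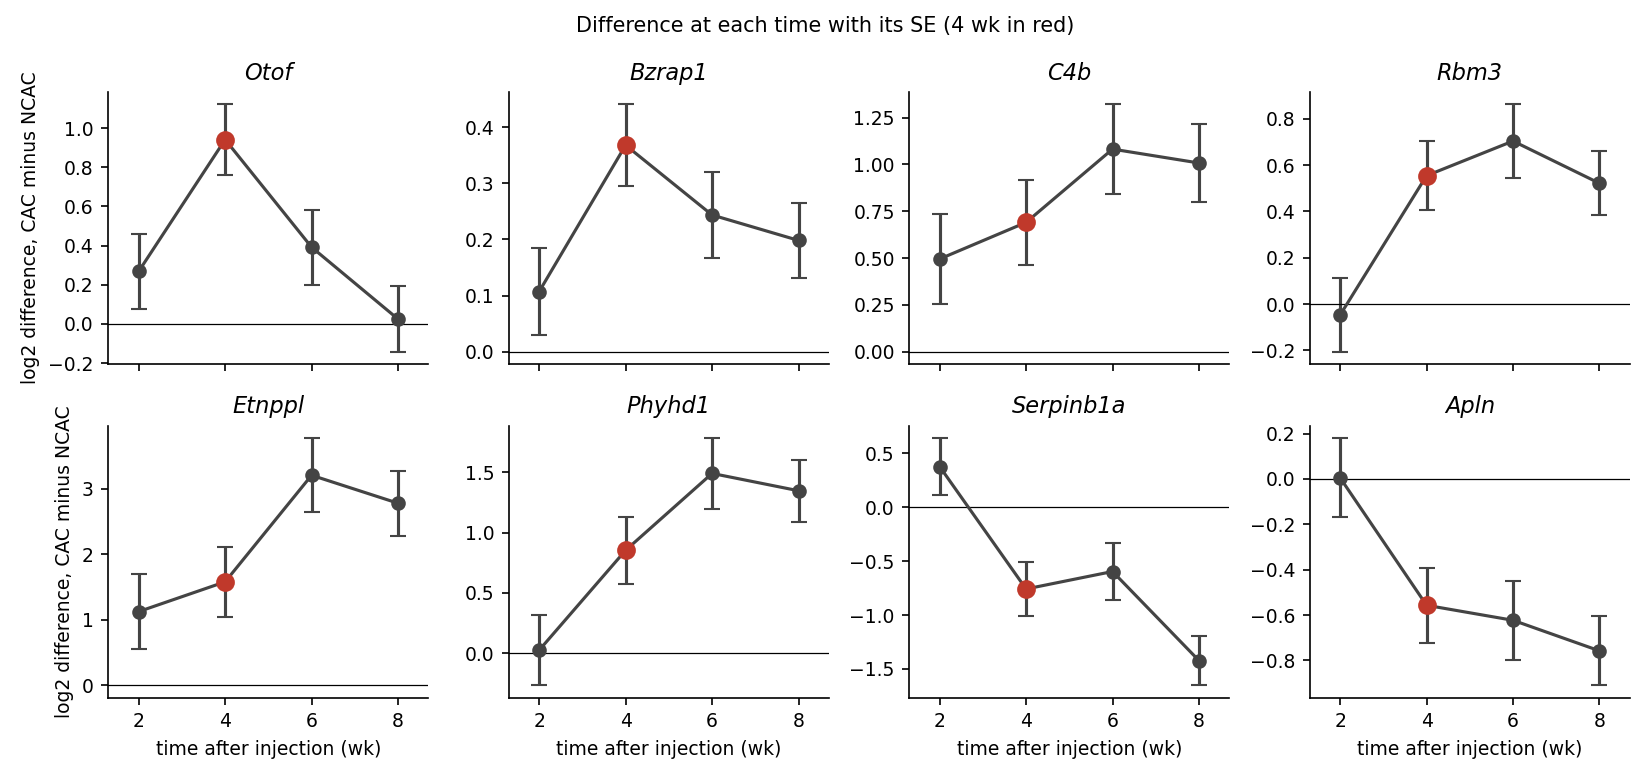
Log2 difference CAC minus NCAC with its SE (vertical axes, each panel with its own scale) at 2, 4, 6 and 8 wk (horizontal axis) for 8 genes, with 4 wk in red. Otof and Bzrap1 are highest at 4 wk, and Etnppl, Phyhd1 and C4b have higher points at 6 and 8 wk than at 4 wk. Otof and Bzrap1 were picked at 4 wk, and Etnppl, Phyhd1 and C4b for differences at 6 or 8 wk. Such picking favours a larger difference at the time used. No change between 4 wk and another time passed the adjusted test.

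Mock-injected tissue of the same time gives a level against which both tumours can be read, but its libraries differed in other tissue. The choroid plexus genes summed to 2600 to 5092 TPM in Con and to 192 to 1690.5 TPM in CAC. Con replicate 2 also held 2254 TPM of the striatum-enriched genes. Per doubling of gene length, log2 level against the median of the 60 libraries changed by 0.02 to 0.09 in Con and -0.02 to 0.03 in CAC. Counts with tissue covariates or the GC and length trend removed are given below. CAC against Con shares its CAC libraries with the comparison above, and NCAC against Con its NCAC libraries, so the values are set side by side only. CAC differed from Con in 125 genes (0.801%), 76 higher (0.487%) and 49 lower (0.314%), and NCAC in 0 genes by limma, with 1538 (9.85%) at an unadjusted p below 0.05. The count of 125 was 0 without CAC replicate 4 or Con replicate 4, 1 without CAC replicate 2, 4 and 8 without Con replicate 1 and 5, 216 without CAC replicate 1 and 590 without CAC replicate 5. Pfdn5, a subunit of the tubulin-folding prefoldin complex, had the smallest p and was at 243, 242, 246, 251 and 236 TPM in CAC and 188, 199, 198, 175 and 188 TPM in Con. It rose by 0.36 ± 0.06 (adjusted p = 0.0109) in CAC over Con, and NCAC over Con was 0.20 ± 0.06 (adjusted p = 0.332). Its CAC and Con libraries did not overlap, but genes picked for a small p tend to separate in this way. The share of all genes that did so was not counted. The ribosomal protein gene Rpl14 rose by 0.47 ± 0.09 in CAC over Con (adjusted p = 0.0109), with 0.28 ± 0.09 in NCAC. Otof was 0.55 ± 0.18 from Con in CAC (adjusted p = 0.0992) and -0.39 ± 0.18 in NCAC (adjusted p = 0.471). Bzrap1 was 0.25 ± 0.07 from Con in CAC and -0.12 ± 0.07 in NCAC. For both genes that passed between the tumours, the Con mean lay between CAC and NCAC, and neither tumour group differed from Con at an adjusted p below 0.05. Rbm3 was 0.56 ± 0.15 from Con in CAC and 0.01 ± 0.15 in NCAC, and C4b 0.64 ± 0.23 and -0.05 ± 0.23, with the NCAC mean close to that of Con in both.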

How the data were processed

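Hippocampal RNA was extracted with Trizol, made into TruSeq stranded mRNA libraries and sequenced on an Illumina NovaSeq, per the labels' protocols. The authors deposited 1 table of TPM for 47643 gene symbols in 60 libraries; the submitters' processing notes name the mm10 build. Not given in the sources used here are the aligner, the counter and the annotation. Deposited TPM values were whole multiples of 1 read in 99.98% of genes (tolerance 0.02 read), which gave 32386613 to 42044671 reads per library.

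Genes with at least 1 TPM in at least 4 libraries (15608) were tested on log2(TPM + 0.5) with limma 3.58.1 (R 4.3.3, intensity trend), as contrasts of 12 group means over all 60 libraries, with no replicate block and Benjamini-Hochberg adjustment over all genes at 0.05. On such a scale the change of low genes is understated. Named genes were the 10 of smallest p or largest difference in each direction, leaving out predicted or clone-named genes, all 38 late genes, the members of smallest p in each described list, and the genes of smallest p in the other contrasts; C4b, Rbm3 and Cirbp were also read for their lack of overlap. Members, lists and genes were chosen with earlier results of these data known, so list counts support nothing independently. Alternatives were other pseudocounts, filters and scaling, voom on the recovered reads, a replicate block, a GC and length correction (96.3% of genes had both), each library left out and, chosen after seeing the data, libraries rich in striatum genes left out, tissue covariates and array weights. Results on some genes of the lists are not reported here.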

Additional observations from a re-analysis of the deposited data

Results flagged for a closer look

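Across the 220 groups of 5 libraries examined, 10 held a library far from the other 4, by the gap to its neighbour as a share of the group's range; chance alone gives about 1 in 20 such groups. In CAC these were replicate 4 for Asl (17.0 TPM) and Tmem119 (13.9 TPM) and replicate 5 for Serpind1 (11.1 TPM). In NCAC they were replicate 1 for Lims2 (21.6 TPM) and Lum (21.4 TPM), replicate 5 for Atrip (12.9 TPM) and replicate 3 for Igtp (7.80 TPM), Gpr17 (31.9 TPM), Hsph1 (117 TPM) and Hsp90aa1 (1041 TPM). The Asl value lay above and the Tmem119 value below the rest of CAC, while NCAC replicate 3 was high for Igtp and low for Gpr17 and both chaperone genes.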

How the results depend on the processing

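The 2 genes past the threshold between CAC and NCAC were 0 with no filter, 0 with no intensity trend, 0 with array weights, 0 without the libraries rich in striatum genes, 0 with the spread taken from the compared groups alone (1221 at an unadjusted p below 0.05), 6 with median-of-ratios scaling (3 higher, 3 lower), 8 with tissue covariates and 21 with the GC and length trend removed (11 higher, 10 lower), and 0 to 180 with 1 library left out. CAC against Con gave 40 with no filter, 201 with median-of-ratios scaling, 221 with the GC and length trend removed, 188 with tissue covariates, 793 with array weights, 37 from the compared groups alone, 0 without the libraries rich in striatum genes and 0 to 590 with 1 library left out. NCAC against Con gave 154 with array weights and 0 to 3 with 1 library left out, the 3 without Con replicate 3; the change between 4 and 8 wk gave 2 with array weights and 0 to 1 with 1 left out. The cause was not tested for any of these.

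Replicate numbers did not pair the samples: same-numbered libraries deviated together with r of -0.07 to 0.12, and 0 of 5 CAC libraries correlated best with its own number. The replicate block gave 4 genes for CAC against NCAC (2 higher, 2 lower), with Otof among them (adjusted p = 0.0433) and Bzrap1 not (adjusted p = 0.0631), and with the GC and length trend removed 198 for CAC against Con.

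Of 2730 pairs of a named gene and an alternative, 2610 kept their direction and side of the threshold, 27 lost the call, 79 gained it and 14 turned direction, in 7 of 110 genes. Otof kept its call in 13 of 25 alternatives and Bzrap1 in 8 of 23. The turned values were Lst1 (0.080 with array weights, -0.40 to 0.051 with 1 library left out, turned without CAC replicate 4), Sgk1 (-0.033 without the libraries rich in striatum genes, -0.021 with array weights, -0.010 to 0.43 with 1 library left out, turned without CAC replicate 4), Pdk4 (-0.048, -0.12 and -0.012 to 0.37 under the same settings), Dcc (-0.029 to 0.10 with 1 library left out, turned without CAC replicate 3 and NCAC replicate 3), Npy (-0.21 to 0.022, turned without CAC replicate 2 and NCAC replicate 4), and, without the libraries rich in striatum genes, Bdnf (0.013) and Ngfr (-0.014). Uneven tissue and the few reads of genes such as Scgb3a1, Lrg1 and Gkn3 limit the precision.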

Other observations

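Few genes of the neuronal lists differed between the tumours, where 8.8% of all genes were higher and 5.2% lower at an unadjusted p below 0.05. The 6 pan-neuronal, 17 presynaptic, 14 potassium channel, 7 CA1, 8 dentate granule and 8 CA2 and CA3 genes each had 0 members at an unadjusted p below 0.05 by limma, with list medians between -0.13 and 0.04. At such a p, 1 of 17 glutamate receptor and postsynaptic genes and 1 of 16 neuropeptide genes were lower, and 1 of 15 serotonin and noradrenaline receptor genes was higher. All 7 CA1 genes had a difference below 0 (median -0.13), as 44.3% of all genes did. The GABA list had 3 of 9 genes higher at an unadjusted p below 0.05 and a median of 0.18. Among these 3 were the synthesis enzyme genes Gad2 and Gad1, which differed by 0.33 ± 0.12 and 0.20 ± 0.08. Gad2 was highest in CAC replicates 4 and 1, at 157, 104, 129.7, 219.9 and 119.9 TPM, the CAC libraries with the highest striatum sums, and the part of striatal tissue was not tested. The count of 3 was 0 without CAC replicate 4 or NCAC replicate 3 and 6 without CAC replicate 2. Against Con, Gad1 was -0.07 ± 0.08 in CAC and -0.28 ± 0.08 in NCAC.

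All 13 heat shock chaperone genes had a difference below 0 (median -0.10), against 44.3% of all genes, and 2 were lower at an unadjusted p below 0.05, against 5.2%. Hsph1 was at 108, 113, 131, 87.7 and 122 TPM in CAC and 144, 155, 117, 143 and 145 TPM in NCAC (-0.33 ± 0.10, adjusted p = 0.155), and without NCAC replicate 3 the count was 4. Of 11 neurotrophin and receptor genes tested, 3 were lower and 2 higher at an unadjusted p below 0.05 (median -0.09). Of all genes, 5.2% were lower and 8.8% higher. Among the lower were the secreted factor genes Ptn (-0.30 ± 0.10) and Mdk (-0.38 ± 0.16), and among the higher the receptor gene Ngfr (0.57 ± 0.25). Without CAC replicate 4 the list had 0 members at such a p in either direction. The insulin receptor gene Insr was at 32.4, 38, 32.3, 38.7 and 29.4 TPM in CAC and 31.4, 29.5, 27.8, 28.4 and 31.2 TPM in NCAC (0.19 ± 0.07). Igfbp2, which is also expressed by choroid plexus and meninges, was at 13.7, 22.4, 21.5, 34.4 and 35.0 TPM in CAC and 44.1, 88.9, 139, 28.7 and 43.3 TPM in NCAC (-1.27 ± 0.51), highest in NCAC replicates 2 and 3, the libraries with the highest choroid plexus sums. The 11 meningeal fibroblast genes all had a difference below 0 (median -0.41), against 44.3% of all genes, and the 4 of them lower at an unadjusted p below 0.05 (5.2% of all genes) were 0 without NCAC replicate 1.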
